A study of Homo sapiens with 2 samples.

Results

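The epithelial membrane protein family, EMP1, EMP2, EMP3 and PMP22, was followed in U251 human glioma cells with and without transfected miR-31, a microRNA. The 4 genes were taken by gene symbol: every probe set (a group of short probes that reads 1 transcript) whose platform symbol was exactly one of these names was included. The family was selected on measured values of these same arrays, since EMP1 was among the genes with the largest decrease, so its values are a description and carry no test. The rule found 11 probe sets of 54675, 6 for EMP1, 4 for EMP2 and 1 for EMP3. PMP22 had no probe set under that symbol in the annotation used here, and its expression was not analysed here. The study compared 1 array of U251 cells transfected with a control with 1 array of U251 cells transfected with miR-31, each grown in DMEM with 10% serum and hybridised to the Affymetrix HG-U133_Plus_2 array from 250 ng of total RNA. The labels do not name the construct, the time after transfection, or any replicate culture, so every difference is between 2 RNA samples and includes whatever else set these cultures apart.

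These genes encode small glycoproteins that cross the membrane 4 times and belong with the claudins to one superfamily. PMP22 is a structural protein of peripheral myelin whose gene dosage is altered in inherited neuropathies, and it was also found as a growth-arrest gene. EMP1 is found in epithelia and in many proliferating cells, EMP2 is known for controlling the surface level of integrins and the assembly of caveolae, and EMP3 has been studied in glioma, where its promoter can be methylated. A microRNA lowers the level or translation of transcripts that pair with its seed, the bases near its 5′ end.

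Shown first are the 5p form of miR-31 and the upstream regions of the member with a large difference and of a member without. The array values here are of the members' transcripts, not of these sequences. The label names miR-31 without its form, so the 5p form is an assumption. The capitals in miR-31 mark the seed, bases 2 to 8. The gene regions are the 250 bases before the annotated start, from RefSeq (GRCh38.p14), 5′ to 3′ on the gene's own strand: chr12:13196476-13196725 on the + strand for EMP1 and chr16:10580599-10580848 on the - strand for EMP2. Capitals there mark matches to TGANTCA, with N any base. This pattern is wider than the site of AP-1, the FOS and JUN transcription factor, which is TGAGTCA or TGACTCA.
hsa-miR-31-5p: aGGCAAGAugcuggcauagcu
EMP1: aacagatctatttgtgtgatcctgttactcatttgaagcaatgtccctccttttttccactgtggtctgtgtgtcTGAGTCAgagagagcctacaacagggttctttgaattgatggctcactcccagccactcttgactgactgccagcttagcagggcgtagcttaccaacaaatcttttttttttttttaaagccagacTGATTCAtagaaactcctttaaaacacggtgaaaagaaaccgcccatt
EMP2: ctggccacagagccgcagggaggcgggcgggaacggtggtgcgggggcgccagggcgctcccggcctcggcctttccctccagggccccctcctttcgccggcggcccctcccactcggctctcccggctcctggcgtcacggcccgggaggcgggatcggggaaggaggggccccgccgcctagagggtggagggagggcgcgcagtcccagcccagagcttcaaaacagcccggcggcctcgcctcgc

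The EMP1 window held 2 matches to TGANTCA, at positions -175 (as TGAGTCA) and -48 (as TGATTCA) from the gene's start. Only the match at -175 has the letters of the AP-1 site, and the shares that follow are for TGANTCA. Of 35116 annotated promoter windows of the same length, 6.57% held at least 1 match and 0.402% at least 2, counting both strands, on which these letters read the same. Neither the EMP2 window, nor the 2 windows of EMP3, nor the 3 of PMP22 held a match. A second motif, GGAATG, bound by the TEAD partners of YAP, was in none of these windows and in 11.9% of all windows on either strand. Base composition also differed among the members: the EMP1 window was 42.4% G or C with 3 CpG dinucleotides, EMP2 77.2% with 27, and both EMP3 windows 59.2% with 9 and 4. The 3 PMP22 windows were 48.8% with 1, fewer than EMP1, 61.2% with 15 and 69.6% with 26, and the median over all windows was 58% with 11. Both motifs were chosen with the EMP1 result known, the first after its letters had been read, and a match says nothing about binding in these cells.

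EMP1 was about 6-fold lower in the miR-31 array, and EMP2 and EMP3 were nearly level. The probe set with the highest mean level for EMP1, 201324_at, read an intensity of 10117 in control cells and 1622 with miR-31. On the log2(intensity + 16) scale used for all ratios here, which understates changes of dim probe sets, this is a ratio of -2.63, miR-31 minus control. EMP2 had 1118 and 1139 on its brightest probe set, a ratio of 0.03. EMP3 had 2337 and 2527, a ratio of 0.11. The EMP1 ratio minus that of EMP2 was therefore -2.66, and minus that of EMP3 -2.74, differences that a shift common to all genes cannot change, while EMP3 and EMP2 differed by 0.09.

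**Figure D1:**
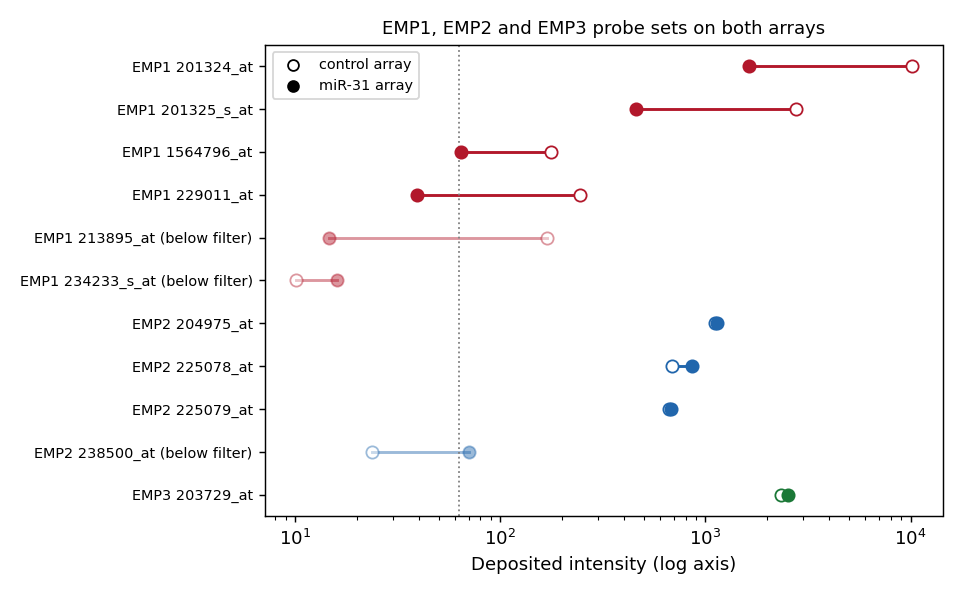
Deposited intensity (log axis) of each EMP1, EMP2 and EMP3 probe set in the control array (open points) and the miR-31 array (filled points), with the level filter of 62.7 as a dotted line and faded points for probe sets whose mean level was below it. The 5 upper EMP1 probe sets have the filled point to the left, the brightest at 1622 against 10117, and EMP2 and EMP3 points nearly coincide except for the dim EMP2 probe set.

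A ratio was read as a difference when it reached 2-fold, and a gene was compared when a probe set of it reached the array-wide median level, 62.7 in intensity. By this rule 1 of the 3 measured members was lower by 2-fold or more and 0 were higher by as much. Among all 11787 genes compared, 1.58% were lower by that much and 3.74% higher, and nothing is read from the members' count beside these shares, because the family was chosen with this contrast in view. Between the paired readings of 3142 genes that had exactly 2 kept probe sets, a single log2 ratio varied with an SD of 0.33. This is the noise of probe sets, not the spread between cultures, which 1 array per group cannot give.

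The 6 probe sets of EMP1 allowed a look at how far the decrease varied between probe sets. The second brightest, 201325_s_at, had 2760 in control cells and 456 with miR-31, a ratio of -2.56. Both bright probe sets therefore gave nearly the same linear fold, 6.24 and 6.05. Lower on the intensity scale, 229011_at had 245 and 39.5, a ratio of -2.23 but a like linear fold of 6.20. The smallest ratio among those that passed the filter came from 1564796_at, with 176 and 64.1, or -1.26. All 4 kept EMP1 probe sets were thus at least 2-fold lower. Of 22467 kept probe sets with 1 symbol, 1.67% were lower and 3.58% higher by as much, but nothing is read from this comparison, since the gene was chosen on these values and 229011_at passed the filter only through its control value. A pair of dim probe sets were below the filter. One of them, 213895_at, had 168 in control cells and 14.6 with miR-31, a ratio of -2.59. The other, 234233_s_at, had 10.1 and 15.98, a ratio of 0.29 in the opposite direction from intensities that cannot be separated from background without detection calls.

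The kept EMP1 ratios spanned 1.37 on the log2 scale, from -2.63 to -1.26, which is wide for 1 gene. Over the 1175 genes with 4 or more kept probe sets, the median span was 0.65 and the upper quartile 0.94. The 3 lowest ratios lay within 0.40 of each other, and 1564796_at alone made up the rest of the span. Of those 1175 genes, 6 had every kept probe set at least 2-fold lower. EMP1 was one of them, and the others, named after their values were seen, were ID4, an inhibitor of helix-loop-helix factors, NT5E, the surface enzyme CD73 that makes adenosine, JAG1, a NOTCH ligand, AKAP12, a scaffold for protein kinase A, and UBASH3B, a tyrosine phosphatase. The probe set nearest to 0 among these genes was at -1.91 in ID4, -1.26 in EMP1 and -1.04 in NT5E. Nothing is read from the place of EMP1 among these 6, because it was chosen for its decrease. EMP1 had 4 kept probe sets only because 229011_at, also among its 3 lowest ratios, passed the filter through its control value.

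EMP1, chosen for its decrease, stood at the lower edge of the genes read at a like intensity. Its ratio was the 5th lowest of all genes compared, a rank that restates how the family was selected. Under the alternatives this rank ran from 2nd, with a pseudocount of 64, to 13th, with the dimmest probe set of each gene. Among the 500 genes nearest to EMP1 in mean level, the lowest ratio was -1.99, the median was -0.07, and 7 were at least 2-fold lower. In the control array 540 genes had a higher intensity than EMP1, and 10 of these were at least 2-fold lower in the miR-31 array but none by as much. Both comparisons restate the same selection, and nothing is read from the place of EMP1 in them. EMP2 and EMP3 lay in the middle of the distribution, with 49.4% and 58.1% of all genes below them.

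**Figure D2:**
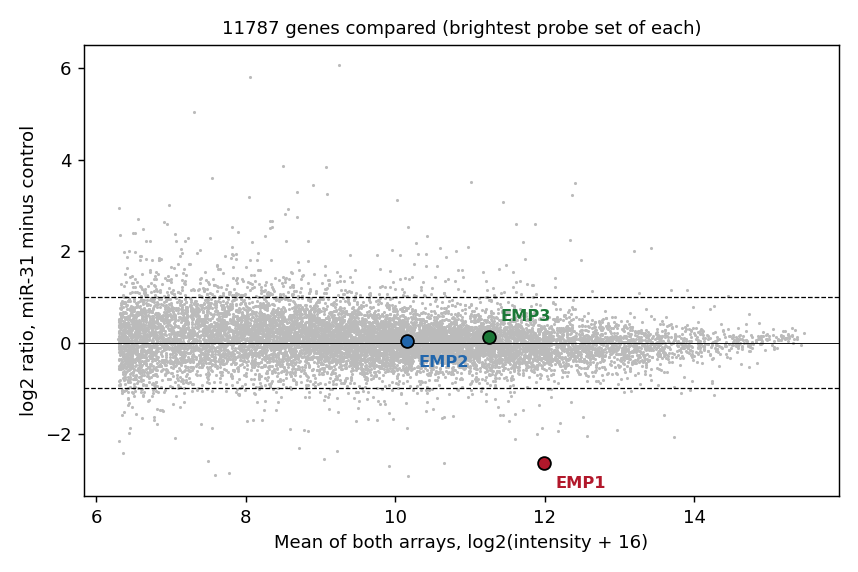
Log2 ratio (miR-31 minus control) of 11787 genes against the mean of both arrays on the log2(intensity + 16) scale, 1 point per gene, with dashed lines at 2-fold. EMP1 at -2.63, chosen for its decrease, lies below every gene of similar or higher level, and EMP2 (0.03) and EMP3 (0.11) lie within the main cloud.

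EMP2 was read by 4 probe sets, and the 3 that passed the filter were close together. The probe set 225079_at had 664 in control cells and 676 with miR-31, a ratio of 0.03, the same as that of 204975_at. The last of them, 225078_at, had 688 and 859, or 0.31, which is within 1 SD of probe set noise from the others. The dim 238500_at, below the filter, had 23.8 and 70.0, a ratio of 1.11. EMP3 was read by the single probe set 203729_at, so its ratio could not be compared with a second reading.

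The signs of EMP2 and EMP3 depended on how the arrays were scaled, and the direction of EMP1 did not in any of the settings tried. The EMP2 ratio lay below 0 after quantile normalization (-0.01), with median centring (-0.05), and when centred on hybridisation controls (-0.16) or poly-A controls (-0.52), which subtracts 0.19 or 0.55 from every gene. EMP3 was below 0 with both spike-in centrings, at -0.08 and -0.44. EMP1 stayed between -3.18 and -2.17 over 12 alternatives.

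**Figure D3:**
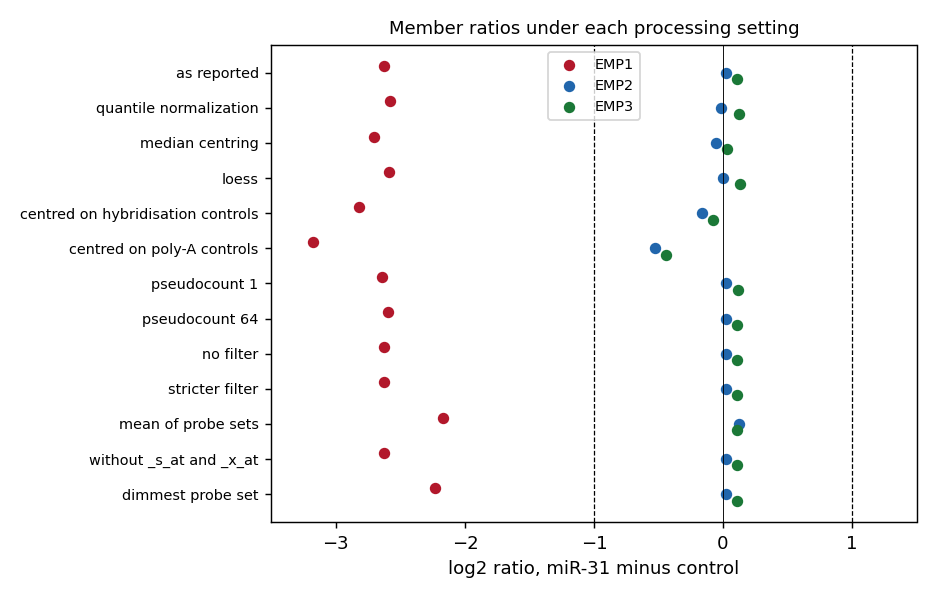
Log2 ratio (miR-31 minus control) of EMP1, EMP2 and EMP3 as reported and under 12 processing alternatives, 1 point per member and setting, with dashed lines at 2-fold. EMP1 points lie between -3.18 and -2.17, and EMP2 and EMP3 points lie between -0.52 and 0.13.

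On the deposited scale, none of the four-transmembrane relatives that passed the level filter reached a 2-fold difference, but CLDN2 and CLDN19 did under other settings. Of 43 listed relatives (claudins, the calcium channel gamma subunits and other members of the superfamily), 39 were named on the array and 12 passed the level filter. Of these, 7 were lower and 5 higher, and 0 reached 2-fold either way at this pseudocount. Their median ratio was -0.03, beside 0.03 over all genes compared. The median changed sign with the setting, and was 0.12 with the stricter filter and 0.05 with the dimmest probe set of each gene. The relatives with the highest mean levels were CLDN12, a claudin, with 1653 in control cells and 1932 with miR-31 (0.22), CLDND1 with 1789 and 1657 (-0.11), and TMEM47 with 1560 and 1691 (0.12). The largest ratios were those of CLDN2, a claudin that forms cation pores, with 94.0 and 42.0 (-0.92, and between -1.47 and -1.001 after quantile normalization, median centring or either spike-in centring, with -1.14 at a pseudocount of 1), and TMEM182, with 114 and 190 (0.67), followed by CLDN19 (-0.56, and -1.11 with poly-A centring) and CACNG4 (0.48). PERP, a p53 target related to PMP22, had 35.8 and 27.2, below the filter.

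Proteins reported to bind the members or to travel with them lay on both sides of 0. Of 19 listed partners 17 were compared, 9 lower and 8 higher, and the median was -0.05. By 2-fold or more 1 was lower and 3 were higher on the deposited scale. Of the higher ones, OCLN was below 2-fold after quantile normalization (0.98), loess (0.999), hybridisation centring (0.92) and poly-A centring (0.55), with a pseudocount of 64 (0.98) and with the mean (0.52) or the dimmest (0.33) of its probe sets. SRC was below it with poly-A centring (0.93) and the mean (0.98) or dimmest (0.49) probe set, and ITGB4 with poly-A centring (0.84) and the dimmest probe set (0.43). The sign of this median also depended on the setting, from -0.60 after poly-A centring to 0.21 with the dimmest probe set of each gene. ITGB3, an integrin subunit whose surface level EMP2 is reported to affect, had 479 in control cells and 136 with miR-31, a ratio of -1.70, but its 6 kept probe sets ran from -1.70 to -0.05. ITGB4, which together with ITGA6 forms the laminin receptor that binds PMP22, had 705 and 1872 (1.39, with 3 probe sets between 0.43 and 2.05). ITGA6 itself had 734 and 764 (0.06). SRC, a tyrosine kinase, had 72.0 and 229 (1.48, with 0.49 on its other probe set), and OCLN, the tight junction protein occludin, had 242 and 539 (1.11, with 3 probe sets between 0.11 and 1.11). Among other partners of EMP2, PTK2, the focal adhesion kinase, had a ratio of -0.05 (4 probe sets all below 0, down to -0.14), the caveolins CAV1 and CAV2 -0.20 and -0.05 (up to 0.26 on another CAV2 probe set), and ITGB1 0.19 (up to 0.51). CANX, the chaperone calnexin that holds PMP22 in the endoplasmic reticulum, had -0.17, and RER1, which returns PMP22 there, -0.09 (down to -0.48 on another probe set). Of the receptors linked to EMP3, EGFR had 0.05 on its brightest probe set, with 6 between -0.74 and 0.23, CD44 had -0.24, with 10 between -0.69 and 0.28, and TGFBR2 had 0.19 on its single kept probe set. P2RX7, an ATP-gated channel reported to bind the family, had 18.2 and 92.7, below the filter.

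Myelin genes, the setting in which PMP22 acts, were mostly dim in these cells. Of 12 listed, 8 were named on the array and 3 passed the filter, none of them at 2-fold, with a median of 0.07 that lay below 0 under several settings, such as -0.19 with no filter. These were PLLP, the myelin protein plasmolipin, with 100.2 in control cells and 152 with miR-31 (0.53), CNP, an enzyme of myelin-forming cells, with 3170 and 3324 (0.07, and -0.71 on its other probe set), and PRX, periaxin, with 112 and 102 (-0.12). MBP, myelin basic protein, had 78.0 and 31.8, and SOX10, the transcription factor of Schwann cells and oligodendrocytes, 53.8 and 22.7, both below the filter.

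On the deposited scale, none of the compared genes beside the members on their chromosomes reached a 2-fold difference, while with poly-A centring FAM234B (-1.16), USP7 (-1.08) and GRWD1 (-1.07) did. Of the 5 protein-coding genes on each side of EMP1 on chromosome 12, 9 were named and 4 compared, with a median of -0.01. The largest ratio was that of FAM234B, with 171 in control cells and 106 with miR-31 (-0.61), and HEBP1, a heme-binding protein, had 0.04. GSG1, a neighbour that also belongs to the superfamily, had 3.51 and 7.92, below the filter. Beside EMP2 on chromosome 16 the 4 compared neighbours had a median of 0.00, beside EMP3 on chromosome 19 the 6 compared had 0.24, and beside PMP22 on chromosome 17 the 5 compared had -0.04. The largest ratios were those of USP7, a deubiquitinase, beside EMP2 at -0.53, GRWD1 beside EMP3 at -0.51, and TVP23C beside PMP22 at -0.33.

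**Figure D4:**
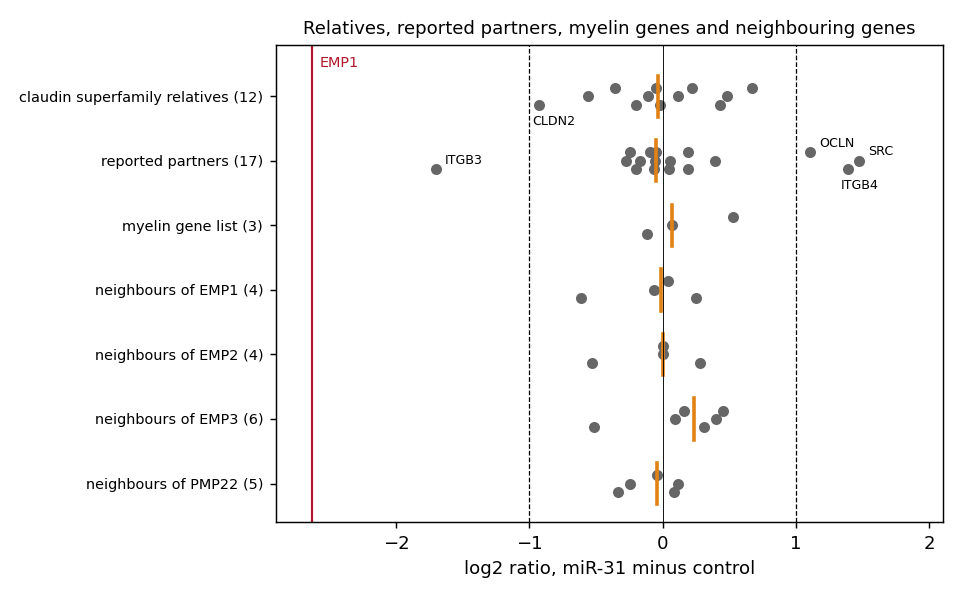
Log2 ratio (miR-31 minus control) of each compared gene among the claudin superfamily relatives, reported partners, myelin genes and chromosomal neighbours of the members, with the number of genes in brackets, an orange bar at each median, dashed lines at 2-fold and a red line at EMP1 (-2.63). At the pseudocount of 16, 4 partners, of all genes plotted, lie beyond 2-fold. These are ITGB3 at -1.70 and OCLN, ITGB4 and SRC between 1.11 and 1.48.

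The genes whose pair of values was most like that of a member were found by the distance between both log2 values, over 2 arrays only, and levels of different probe sets also depend on the probes. Nearest to EMP1 were F2R, the thrombin receptor PAR1, with 7548 in control cells and 1887 with miR-31 (-1.99), PLAT, tissue plasminogen activator, with 7556 and 2066 (-1.86), and CCND1, cyclin D1, with 9089 and 2352 (-1.94). They were 0.47, 0.54 and 0.55 log2 units away, and the second probe set of F2R had -0.79. Around EMP2 the nearest were TRAF3, an adaptor of innate immune signalling, EFCAB11 and RAB12, all within 0.02, although the 3 probe sets of RAB12 ran from -0.43 to 1.28. CASP8AP2, TTC1 and HADHA, an enzyme of fatty acid oxidation, were within 0.02 of EMP3.

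The astroglial and glioma markers of the label were present, with 8 of 11 compared, none of these past 2-fold, and members on both sides of 0. Their summed intensity was 86138 in control cells and 85712 with miR-31. Its largest terms moved in opposite directions, VIM with 29991.5 and 34112 and CD44 with 23866 and 20146. GFAP, the astrocyte filament, had 2007 and 3624 (0.85), SOX2 0.39 and VIM 0.19, while NES, the progenitor filament nestin, had 11039 and 5877 (-0.91), SOX9 -0.56, CD44 -0.24 and SLC1A3 -0.22. S100B, AQP4 and OLIG2 were below the filter. Markers of other cells were few: 1 of 7 Schwann cell markers passed the filter (summed intensity 292 and 216), 2 of 6 epithelial (6136 and 3173, nearly all KRT18), 0 of 6 immune (59.6 and 142), 1 of 4 endothelial (185 and 210) and 1 of 4 fibroblast markers (5714 and 9204, nearly all PDGFRA). No marker was listed at 0 on either array. EPCAM, another of the epithelial markers, had 5.89 and 5.01, below the filter. KRT18, an epithelial keratin, was 2-fold lower (-1.01) and NES nearly so alongside EMP1. KRT8, the other epithelial marker compared, was higher (0.27), as were PDGFRA (0.69) and GFAP (0.85). The part of these markers in the EMP1 result was not tested. With bulk RNA, fewer cells with EMP1 and less EMP1 RNA per cell cannot be told apart.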

How the data were processed

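The deposited values were linear intensity summaries, 1 per probe set and array, made with software not given in the sources used here. Leaving out the lowest and highest 2% of probe sets, both arrays averaged 500.1, as after scaling to a common level, and the median intensities were 63.2 (control) and 67.6 (miR-31). Gene names came from the platform annotation supplied, in which 41091 probe sets had 1 symbol. The 1801 probe sets with several symbols, those unnamed here and 62 control probe sets were left out. Ratios were taken on the log2 scale with a pseudocount of 16 from the deposited intensities, and a gene was represented by its brightest kept probe set. Each group has 1 array, whose number limits the precision, so no test was made. The calculation was tested on simulated data.

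The members and lists were chosen with earlier results of these data known. Genes were named by rule: all member probe sets, up to 4 genes of each list with the largest absolute ratio, the 3 relatives with the highest level, neighbours past 2-fold or the largest, and the 3 genes nearest to each member in both values. Other list genes named (for their known link to a member) were picked after their values were seen. A planned comparison of the members' protein sequences was not made, since no protein sequences were used here. Promoter windows and the microRNA came from RefSeq tables. The alternatives were quantile normalization, median centring, loess (span 0.3), centring on 18 hybridisation or 24 poly-A control probe sets, pseudocounts of 1 and 64, no filter, a filter at the 65th percentile, the mean or the dimmest of a gene's kept probe sets, leaving out _s_at and _x_at probe sets, and a threshold of 1.5-fold. Python 3.11.15, numpy 2.4.6, pandas 2.3.3, statsmodels 0.14.6 and matplotlib 3.10.9 were used.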

Additional observations from a re-analysis of the deposited data

How the results depend on the processing

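No paired analysis was possible because there is a single array per condition, for which reason none was left out in turn. A value was taken as moved when it shifted by more than the probe set noise of 0.33 on the log2 scale, and a count when it changed by more than 1.5 times. EMP1 was the only member at least 2-fold lower under all settings, the threshold of 1.5-fold included. Its ratio of -2.63 became -3.18 after poly-A centring, -2.17 as the mean over kept probe sets and -2.23 with the dimmest kept probe set, and it moved by less under the other 9. Centring on poly-A controls subtracts 0.55 from every ratio by construction and gave EMP2 -0.52, EMP3 -0.44, relatives a median of -0.58, partners -0.60 and myelin genes -0.48. Without _s_at and _x_at probe sets only 1 myelin gene was left, at -0.71. Genes at least 2-fold lower, 186, became 367 centred on hybridisation controls, 1279 on poly-A controls, 1002 with no filter and 793 at 1.5-fold. Genes at least 2-fold higher, 441, became 266 and 124 with the same centrings, 283 with a pseudocount of 64, 1184 with no filter, 286 with the stricter filter and 1376 at 1.5-fold. Of genes past 2-fold 70.3% were higher, and 57.3% after quantile normalization, 59.4% with median centring, 59.0% with loess, 54.2% with no filter, 42.0% on hybridisation and 8.84% on poly-A controls. Dim probe sets cannot be separated from background, which limits 1 EMP2 and 2 EMP1 probe sets below the filter. The same limit touches kept EMP1 probe sets in the miR-31 array, beside the filter of 62.7. There 229011_at, the dimmest kept one, had 39.5 and 1564796_at had 64.1.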
